A study of Canis lupus familiaris with 6 samples.

Results

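Cholesterol synthesis, intracellular sterol transport and the SREBP control system were followed through 32 genes in MDCK cells, a dog kidney epithelial line, after siRNA against the phosphatase PRL1. The genes were a fixed list taken by symbol and chosen with earlier results of these data known. All 32 were among the 41401 symbols of the deposited tables and passed the filter of a mean of at least 1 FPKM. They comprised 8 genes of the early mevalonate and isoprenoid steps, 12 of squalene and late sterol synthesis, 5 SREBP factors and regulators, 3 genes of cholesterol transport and 4 of fatty acid synthesis. PRL phosphatases bind the CNNM magnesium transporters, and the study's title sets its question as cell death that follows a loss of cellular magnesium.

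RNA was sequenced in 6 libraries, 18 h after the second of the siRNA transfections. Wild-type MDCK cells gave 1 library with control siRNA and 1 with PRL1 siRNA. Clone 1 and clone 2, both PRL2-/- and heterozygous for PRL1 (PRL1+/-), each gave 1 library per siRNA. Each mutant line is thus a single clone. How its alleles arose is not given in the labels, which also name no separate cultures, so p-values measure only the spread between these lines and libraries. Values are FPKM, the authors' fragments scaled by transcript length and by mapped fragments, and 3 values in a row are given in the order wild type, clone 1, clone 2.

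Cells make cholesterol from acetyl-CoA through mevalonate and isoprenoid diphosphates to squalene, and from squalene through lanosterol and a chain of demethylations, isomerisations and reductions. Synthesis is set by the SREBP transcription factors, which sit in the endoplasmic reticulum bound to the escort protein SCAP. When sterols are plentiful, INSIG proteins hold the SCAP-SREBP complex there, and when sterols are scarce the complex moves to the Golgi, where proteases release the active factor. SREBP2 acts mainly on cholesterol genes and SREBP1 on fatty acid genes, and epithelial cells also take up cholesterol that leaves the lysosome through NPC2 and NPC1.

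The targeted transcript was lower in every PRL1 siRNA library. PTP4A1, the gene of PRL1, was at 63.5, 61.7 and 69.9 FPKM under control siRNA and at 33.1, 37.8 and 37.8 FPKM after PRL1 siRNA (log2 difference -0.83 ± 0.05, SE, n = 3 lines, limma adjusted p = 0.00127). PTP4A2, the gene of PRL2, was still transcribed in both clones at 80.4 and 56.7 FPKM under control siRNA, against 72.7 FPKM in wild type, so its level did not set the clones apart from wild type. After PRL1 siRNA it fell by 0.25 ± 0.04 (adjusted p = 0.00572). Relative depth, read from the lowest values, lay between 0.768 and 1 of the wild-type control library, and the lowest was the PRL1 siRNA library of clone 1. All 8 kidney epithelial markers looked up were kept, with a summed level of 1876 to 2748 FPKM under control siRNA and 2067 to 3032 FPKM after PRL1 siRNA. Of these markers CDH16, PAX8 and KRT19 rose (0.82, 0.57 and 0.36) and KRT18, CDH1 and EPCAM fell by 0.22, 0.16 and 0.14 in the same fit as the sterol genes, and the rises of CDH16 and PAX8 were larger than that of any of the 32 genes. The part of these marker changes in the sterol gene results was not tested. Markers of leukocytes, fibroblasts, endothelium and adipocytes summed to at most 1.21 FPKM per list and library, with PTPRC, CD3E and LEP at 0 in all 6.

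After PRL1 siRNA, 19 of the 32 sterol and SREBP genes passed at a limma adjusted p under 0.05, with small differences in both directions. Against the control library of the same line, 14 of 32 genes rose (43.8%) and 5 fell (15.6%), while 13 did not pass. Over all 12125 genes tested the same fit called 39.3%, 17.6% higher and 21.7% lower. With each library centred on its median, the shares turned to 21.0% higher and 18.1% lower, and LSS, HSD17B7 and NPC2 joined the members that passed, for 17 higher and 5 lower. The median log2 difference was 0.13 over the 32 genes and -0.01 over all genes. Because the list was chosen with earlier results of these data known, these shares and medians are descriptions and not a test of the list. All 32 genes had a mean of at least 9.52 FPKM, while the 12125 genes went down to a mean of 1 FPKM. The shares over all genes are thus not matched for level, and a matched share was not computed, here or below. MVD and ACLY rose the most, by 0.48 and 0.41 log2 units, and MSMO1, SCD, INSIG1, IDI1 and LBR were the genes that fell, by 0.52, 0.47, 0.46, 0.36 and 0.29. In bulk RNA, a change in the make-up of the culture and a change in RNA per cell cannot be told apart.

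The test was limma on log2(FPKM + 1) with the line as a term, in which 3 within-line differences leave 2 residual degrees of freedom. Without the line term 0 of the 32 genes passed as higher and 1, MSMO1, as lower (416 of all genes). With all genes above 0 tested, 5 remained: MVD, EBP, ACLY, ACACA and LBR. Calls among all genes fell from 4762 to 1179 in that setting. When each line was left out in turn, 7 of the 19 calls stood every time (MVD, LBR, MSMO1, EBP, INSIG1, ACLY and SCD) and 4 were lost every time (PMVK, FDPS, NSDHL and SCAP). Each of these fits has 2 within-line differences and leaves 1 residual degree of freedom. A call lost in this way, here or below, therefore does not show that the result rested on the line left out. ACACA lost its call without clone 1 and without clone 2, though its log2 difference stayed at 0.178 and 0.176. Over all genes the fit called 4037 without wild type, 1709 without clone 1 and 2421 without clone 2. The share of all called genes that stood every time was not computed, so 7 of 19 has no background beside it. The clones alone gave 0 calls among all genes by limma without pairing (11 of the 32 genes and 2575 of all genes at an unadjusted p under 0.05). With the clone as block, 11 of the 32 were called higher and 5 lower. Of all genes that fit called 33.7%, 14.5% higher and 19.2% lower, and it leaves 1 residual degree of freedom.

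**Figure D1:**
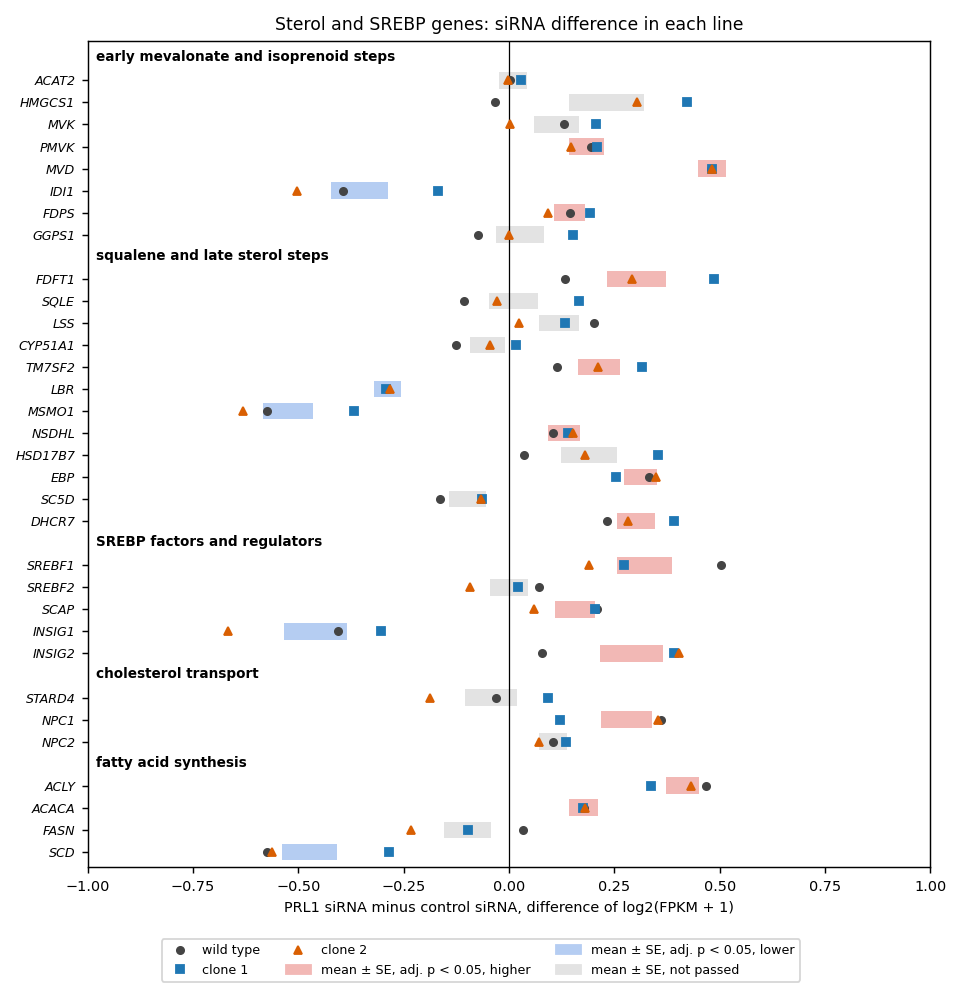
PRL1 siRNA minus control siRNA for each of the 32 genes (rows, by role) as a difference of log2(FPKM + 1) on the horizontal axis. Symbols are the 3 lines and each shaded box spans the mean ± SE of the within-line limma fit, coloured where the adjusted p was under 0.05 (14 higher, 5 lower). MVD and LBR have 3 nearly coincident symbols, and the symbols of HMGCS1 and FDFT1 are spread out.

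In the early mevalonate and isoprenoid steps, 3 of 8 genes rose (PMVK, MVD and FDPS), 1 fell (IDI1) and 4 did not pass, with a median of 0.13. That is 50% called over 8 genes, beside 39.3% of all genes, and the other roles had 58.3% of 12 late sterol genes, 80% of 5 regulators, 33.3% of 3 transport genes and 75% of 4 fatty acid genes. MVD, which decarboxylates mevalonate diphosphate to the first isoprenoid unit, was at 51.2, 58.3 and 66.4 FPKM under control siRNA and at 71.8, 81.8 and 93.2 FPKM after PRL1 siRNA. All 3 PRL1 siRNA libraries lay above all 3 control libraries, and the log2 differences were 0.48, 0.48 and 0.48 (0.48 ± 0.03, SE, n = 3 lines, adjusted p = 0.00133). How many of all genes had groups that lay apart in this way was not computed, so the overlap given for each gene is a description. IDI1, the isomerase that acts on the product of MVD, went the other way, from 56.4, 59.2 and 51.0 to 42.6, 52.5 and 35.7 FPKM. The groups of IDI1 overlapped between lines, since clone 1 after PRL1 siRNA stood above clone 2 under control siRNA, but every line was lower after PRL1 siRNA (-0.36 ± 0.07, adjusted p = 0.012). The IDI1 call was lost without wild type (adjusted p = 0.0510) and without clone 2 (0.0526).

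PMVK, the kinase just before MVD, was at 9.66, 9.54 and 8.80 FPKM and then at 11.2, 11.2 and 9.84 FPKM (0.18 ± 0.04, adjusted p = 0.0200). FDPS, which joins isoprenoid units to farnesyl diphosphate, was at 107, 127 and 131 FPKM and then at 119, 146 and 140.1 FPKM (0.14 ± 0.04, adjusted p = 0.0276). PMVK stood above every control library in all 3 PRL1 siRNA libraries, the groups of FDPS overlapped, and neither call stood with any line left out. HMGCS1, which makes the precursor HMG-CoA, was at 35.3 and 34.5 FPKM in wild type, at 33.3 and 45.0 in clone 1 and at 37.1 and 46.0 in clone 2. It did not pass over the 3 lines (0.23 ± 0.09, adjusted p = 0.0881) and passed in the clones without wild type (0.36, adjusted p = 0.0121). ACAT2, the cytosolic thiolase, MVK, mevalonate kinase, and GGPS1, which makes geranylgeranyl diphosphate for protein prenylation, had differences between -0.07 and 0.21 in any line and did not pass. The groups of MVK did not overlap either, with PRL1 siRNA higher, though it had no call (limma adjusted p = 0.146).

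In squalene and late sterol synthesis, 5 of 12 genes rose (FDFT1, TM7SF2, NSDHL, EBP and DHCR7), 2 fell (LBR and MSMO1) and 5 did not pass, again with a median of 0.13. The largest difference in this stretch was a fall, in MSMO1, the oxidase that starts removal of the methyl groups next to the sterol hydroxyl. MSMO1 was at 25.3, 26.9 and 29.5 FPKM under control siRNA and at 16.7, 20.7 and 18.7 FPKM after PRL1 siRNA. No PRL1 siRNA library reached a control library, and the fall held in each line (-0.58, -0.37 and -0.63, mean -0.52 ± 0.06, adjusted p = 0.00295). NSDHL, the dehydrogenase that works on the product of MSMO1, was higher in each line, at 17.3, 15.1 and 13.6 and then at 18.7, 16.8 and 15.2 FPKM (0.13 ± 0.04, adjusted p = 0.0415). Its groups overlapped, and the call was lost with any line left out. HSD17B7, the ketoreductase of the same demethylation, was at 14.9, 15.5 and 14.1 and then at 15.3, 20.1 and 16.1 FPKM and did not pass (adjusted p = 0.0711), though it did without wild type (0.0350).

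A pair of genes encodes the sterol reductase that acts just after lanosterol demethylation, and their transcripts moved in opposite directions. LBR, which is also the lamin B receptor of the inner nuclear membrane, was at 85.6, 85.8 and 66.5 FPKM under control siRNA and at 69.8, 69.9 and 54.5 FPKM after PRL1 siRNA. Clone 2 was the low line under both siRNAs, so that the groups overlapped, and the within-line differences were nearly equal (-0.29, -0.29 and -0.28, mean -0.29 ± 0.03, adjusted p = 0.00287). TM7SF2, its counterpart in the endoplasmic reticulum, was at 14.1, 15.1 and 18.2 and then at 15.4, 19.0 and 21.2 FPKM (0.21 ± 0.05, adjusted p = 0.0234). Its groups overlapped too, and the call was lost without clone 1 (adjusted p = 0.141) and without clone 2 (0.0953). LBR remained the more abundant transcript per length in all 6 libraries.

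Among the last steps, EBP, the isomerase that shifts the ring double bond, was at 24.2, 23.0 and 24.4 FPKM under control siRNA and at 30.7, 27.6 and 31.3 FPKM after PRL1 siRNA. The groups did not overlap (0.31 ± 0.04, adjusted p = 0.00389). DHCR7, the reductase that completes cholesterol, was at 18.2, 16.2 and 19.6 and then at 21.5, 21.5 and 24.0 FPKM, again without overlap (0.30 ± 0.05, adjusted p = 0.00642; 0.0533 without clone 1). FDFT1, squalene synthase, which commits farnesyl diphosphate to sterols, was at 35.2, 30.8 and 34.0 and then at 38.6, 43.5 and 41.9 FPKM. It was higher in every PRL1 siRNA library than in any control library, with unequal differences of 0.13, 0.49 and 0.29 (0.30 ± 0.07, adjusted p = 0.0213; 0.0910 without clone 1 and 0.0790 without clone 2). SQLE, the squalene epoxidase, LSS, lanosterol synthase, CYP51A1, the lanosterol demethylase, and SC5D, a late desaturase, did not pass, and their mean differences lay between -0.10 and 0.12. SC5D had no overlap between its groups, with PRL1 siRNA lower, and still no call (limma adjusted p = 0.129).

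**Figure D2:**
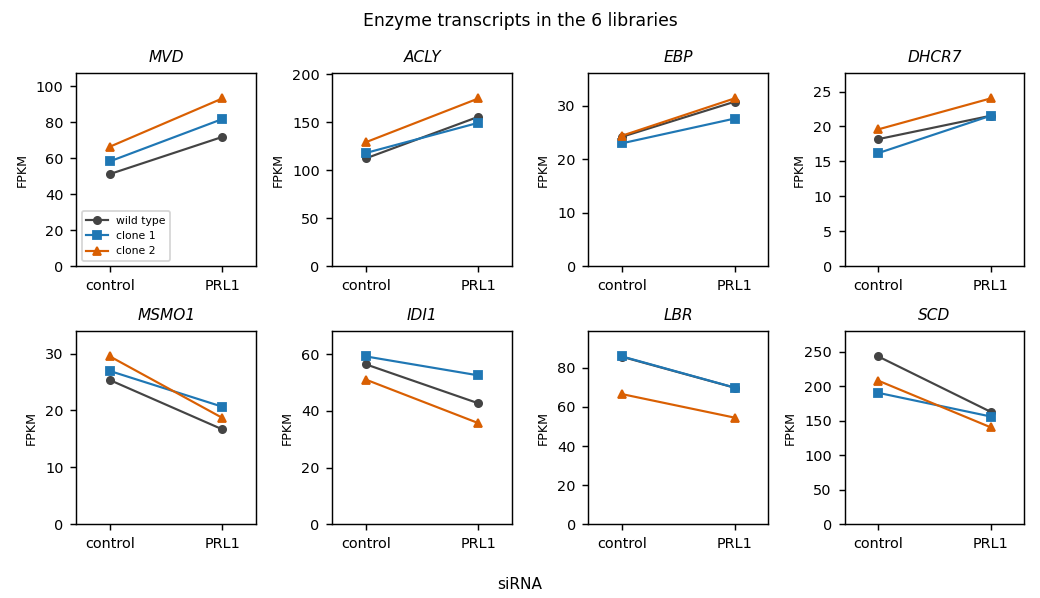
FPKM (vertical axes, from 0) of 8 enzyme genes under control and PRL1 siRNA (horizontal axes), with 1 line per cell line joining its 2 libraries. The upper row shows genes that rose (MVD from 51.2 to 71.8 FPKM in wild type) and the lower row genes that fell (MSMO1 from 25.3 to 16.7 FPKM in wild type), with the same direction in all 3 lines.

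Of the 5 SREBP factors and regulators, 3 rose (SREBF1, SCAP and INSIG2), 1 fell (INSIG1) and SREBF2 did not pass. The INSIG genes, whose products hold SCAP in the endoplasmic reticulum, diverged. INSIG1, itself a well-known SREBP target, was at 26.9, 22.8 and 29.6 FPKM under control siRNA and at 20.1, 18.3 and 18.2 FPKM after PRL1 siRNA. All 3 PRL1 siRNA libraries were below all 3 control libraries (-0.46 ± 0.07, adjusted p = 0.00759). INSIG2, which is less dependent on SREBP, was at 9.28, 9.19 and 9.68 and then at 9.85, 12.4 and 13.1 FPKM (0.29 ± 0.07, adjusted p = 0.0297). All PRL1 siRNA libraries of INSIG2 lay above the controls, narrowly in wild type (0.08, against 0.39 and 0.40 in the clones), and the call was lost without clone 1 (adjusted p = 0.165) or clone 2 (0.134). The ratio of INSIG2 to INSIG1, chosen after these values were seen and not tested, stood at 0.345, 0.403 and 0.328 under control siRNA and reached 0.491, 0.676 and 0.720 after PRL1 siRNA.

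SREBF1, the gene of SREBP1, was at 44.8, 40.0 and 40.4 FPKM under control siRNA and at 63.8, 48.5 and 46.3 FPKM after PRL1 siRNA. The groups did not overlap, and wild type had the largest of the 3 differences (0.50, against 0.27 and 0.19 in the clones; mean 0.32 ± 0.07, adjusted p = 0.0145, and 0.0704 without clone 1). SREBF2, the gene of SREBP2, was at 46.8, 42.9 and 38.1 and then at 49.3, 43.5 and 35.7 FPKM, with differences of 0.07, 0.02 and -0.09 and no call (adjusted p = 0.998). The ratio of SREBF1 to SREBF2, also chosen after the values were seen, stood at 0.956, 0.932 and 1.06 and reached 1.296, 1.115 and 1.295. SCAP, the escort protein, was at 14.1, 14.7 and 15.7 and then at 16.5, 17.1 and 16.4 FPKM (0.16 ± 0.05, adjusted p = 0.0464), with no overlap between the groups, and the call was lost with any line left out.

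**Figure D3:**
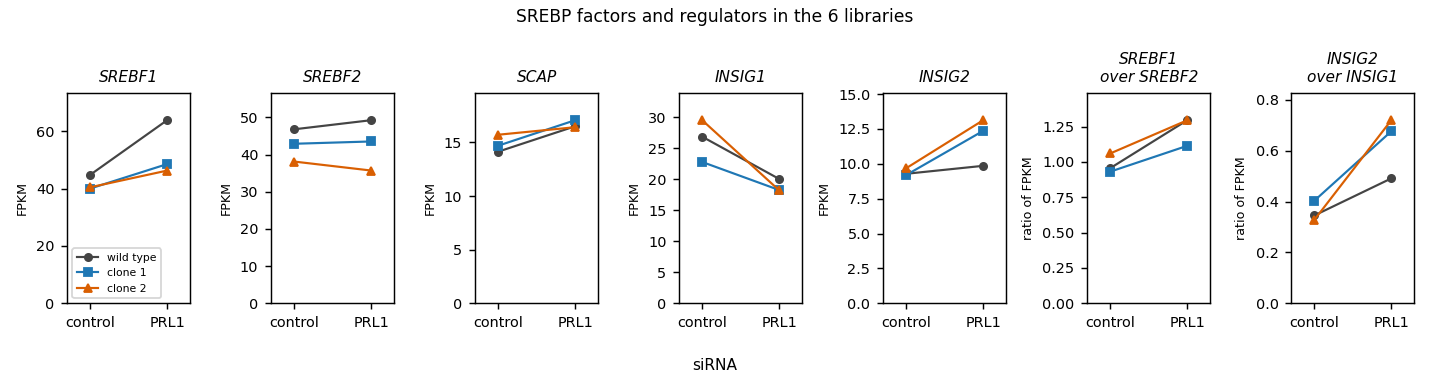
FPKM (vertical axes, from 0) of SREBF1, SREBF2, SCAP, INSIG1 and INSIG2 and, in the 2 right panels, the ratios SREBF1 over SREBF2 and INSIG2 over INSIG1, under control and PRL1 siRNA, with 1 line per cell line. INSIG1 falls and INSIG2 rises in each cell line, and the INSIG2 to INSIG1 ratio reaches 0.491, 0.676 and 0.720.

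Of the 3 genes of cholesterol transport, NPC1 rose, and NPC2 and STARD4 did not pass. NPC1, the lysosomal membrane protein that passes cholesterol out of the lysosome, was at 9.29, 10.7 and 10.3 FPKM under control siRNA and at 12.2, 11.7 and 13.5 FPKM after PRL1 siRNA. The groups did not overlap (0.28 ± 0.06, adjusted p = 0.0186), and the call was lost without wild type (0.0698) and without clone 2 (0.0937). NPC2, the soluble lysosomal protein that hands cholesterol to NPC1, had the highest mean level of the 32 transcripts, at 191, 184 and 209 and then at 205, 202 and 219.7 FPKM (0.10 ± 0.03, adjusted p = 0.0538). STARD4, a cytosolic sterol carrier, was at 13.2, 10.7 and 12.7 and then at 12.9, 11.4 and 11 FPKM, with no common direction.

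Of the 4 genes of fatty acid synthesis, ACLY and ACACA rose, SCD fell and FASN did not pass. ACLY, which makes cytosolic acetyl-CoA from citrate for both fatty acids and sterols, was at 112, 118 and 129 FPKM under control siRNA and at 156, 149.6 and 175 FPKM after PRL1 siRNA. The groups did not overlap (0.41 ± 0.04, adjusted p = 0.00199). SCD, the desaturase that makes monounsaturated fatty acids, was at 243, 190.5 and 208 and then at 163, 156 and 141 FPKM. It too had no overlap, in the opposite direction (-0.47 ± 0.06, adjusted p = 0.00472), and wild type had both the highest control level and the largest difference in FPKM. ACACA, acetyl-CoA carboxylase, was at 31.8, 34.5 and 37.7 and then at 36.1, 39.1 and 42.9 FPKM, with differences of 0.18, 0.18 and 0.18 (0.18 ± 0.03, adjusted p = 0.0124; 0.0827 without clone 1 and 0.0701 without clone 2). FASN, fatty acid synthase, was at 45.5, 60.9 and 61.4 and then at 46.6, 56.8 and 52.1 FPKM (-0.10 ± 0.06, adjusted p = 0.214).

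Taken line by line with no test, 18 of the 32 genes were higher in all 3 lines and 6 were lower, against 31.6% and 35.8% of all genes tested. With a difference of at least 0.32 log2 units (log2 of FPKM + 1) in each line, MVD and ACLY were higher and MSMO1 was lower, against 3.74% and 4.31% of all genes (453 and 523 genes; 547 and 414 when each library was centred on its median). The median difference over the 32 genes was 0.09 in wild type, 0.16 in clone 1 and 0.07 in clone 2, where all genes had medians of -0.00385, -0.01 and -0.02. Clone 1 had 7 of the 32 genes higher and 1 lower by at least that much, clone 2 had 5 and 4, and wild type had 5 and 4. The shares over all genes were 8.90% and 8.96% in clone 1, 8.12% and 9.84% in clone 2 and 9.41% and 8.98% in wild type.

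Whether the clones and wild type responded differently was tested by the interaction term. It passed for 0 of the 32 genes and 0 of all genes by limma without pairing (0%; 2 of the 32 genes and 136 of all genes at an unadjusted p under 0.05), and with the line as block for 0 of the 32 and 1 of all genes (0.00825%). The 2 genes were HMGCS1, with the larger difference in the clones (0.40 ± 0.13, adjusted p = 1.00), and SREBF1, with the larger difference in wild type (-0.27 ± 0.10, adjusted p = 1.00). In the blocked fit 3 of the 32 and 1228 of all genes had an unadjusted p under 0.05, and the adjusted p was 0.454 for HMGCS1, 0.471 for SREBF1 and 0.471 for INSIG2 (0.32 ± 0.08, larger in the clones). Wild type entered with 1 pair and the clones with 2.

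Under control siRNA, the clones were compared with wild type before any knockdown of PRL1. None of the 32 genes passed by limma, and none of all 12125 did (0%; 4 of the 32 and 1632 of all genes at an unadjusted p under 0.05). FASN, at 60.9 and 61.4 FPKM in the clones and 45.5 FPKM in wild type, was the member with the smallest p (0.42 ± 0.08, adjusted p = 0.262) and the 1 gene of the 32 at least 0.32 log2 units above wild type in both clones, against 5.63% of all genes; 0 of the 32 were as far below, against 3.67%. FDPS was at 127 and 131 FPKM in the clones and 107 in wild type (0.27 ± 0.07, adjusted p = 0.308). SQLE was at 66.9 and 72.7 FPKM and 85.1 in wild type (-0.28 ± 0.09, adjusted p = 0.332), and GGPS1 at 8.61 and 8.80 FPKM and 10.9 in wild type (-0.30 ± 0.09, adjusted p = 0.333). The median over the 32 genes was -0.01, against 0.03 over all genes. Only 1 wild-type control library stands behind each of these differences, and it was assumed to vary like the clones.

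Genes next to the pathway were read from lists outside the 32, also chosen with earlier results of these data known, so their shares are descriptions. Of 9 other SREBP-linked fatty acid genes, ACACB stayed below 0.05 FPKM and 8 were tested: 4 rose (ACSS2, FADS2, LPIN1 and ME1) and 0 fell, with a median of 0.17. The share called was 50%, all of it higher, beside 39.3% of all genes called and 17.6% called higher. With libraries centred on their medians, 5 passed as higher. LPIN1, the phosphatidate phosphatase lipin, showed the largest rise, from 4.80, 3.92 and 4.77 to 6.03, 5.72 and 6.51 FPKM (0.37 ± 0.06, adjusted p = 0.00609). No LPIN1 library under PRL1 siRNA was as low as a control library, and without clone 1 the calls of LPIN1, ACSS2 and ME1 were lost (adjusted p = 0.0563, 0.0606 and 0.0636); ACSS2 encodes acetyl-CoA synthetase and ME1 malic enzyme, which supplies NADPH. The largest decrease in that list was in ELOVL5, a fatty acid elongase, which did not pass (-0.04 ± 0.04, adjusted p = 0.476).

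Among 10 genes of the branches that leave the mevalonate pathway for prenyl groups, dolichol and ubiquinone, 0 rose and 4 fell (PGGT1B, DHDDS, NUS1 and PDSS2), with a median of -0.13. The share called, 40%, was near the 39.3% of all genes, and all of it was lower, where 21.7% of all genes were called lower. PGGT1B, the catalytic subunit of a prenyltransferase, fell from 7.18, 7.21 and 6.25 to 5.06, 6.13 and 5.07 FPKM (-0.30 ± 0.06, adjusted p = 0.0148). All 3 PRL1 siRNA libraries of PGGT1B lay below the controls, and the call was lost without clone 1 (0.0602) or clone 2 (0.0574). DHDDS, NUS1 and PDSS2 also lost theirs without either clone, and NUS1 without wild type (0.0551) and with libraries centred on their medians (0.0505). The other end of the list was COQ2, which attaches the ubiquinone side chain and did not pass (0.12 ± 0.04, adjusted p = 0.0741), though it did with centred libraries (0.0488) and without wild type (0.0340), so that centring left 1 gene of the list higher and 3 lower. Of 8 genes of SREBP processing and sterol-regulated degradation, 0 rose and 1 fell (12.5% called), the ubiquitin ligase gene RNF139 (-0.17 ± 0.05, adjusted p = 0.0471), whose call was lost with any line left out or with libraries centred on their medians (0.0788). MBTPS1 and MBTPS2, the Golgi proteases that release SREBP, were at 0.03 ± 0.04 and -0.03 ± 0.04 and did not pass (adjusted p = 0.512 and 0.588).

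**Figure D4:**
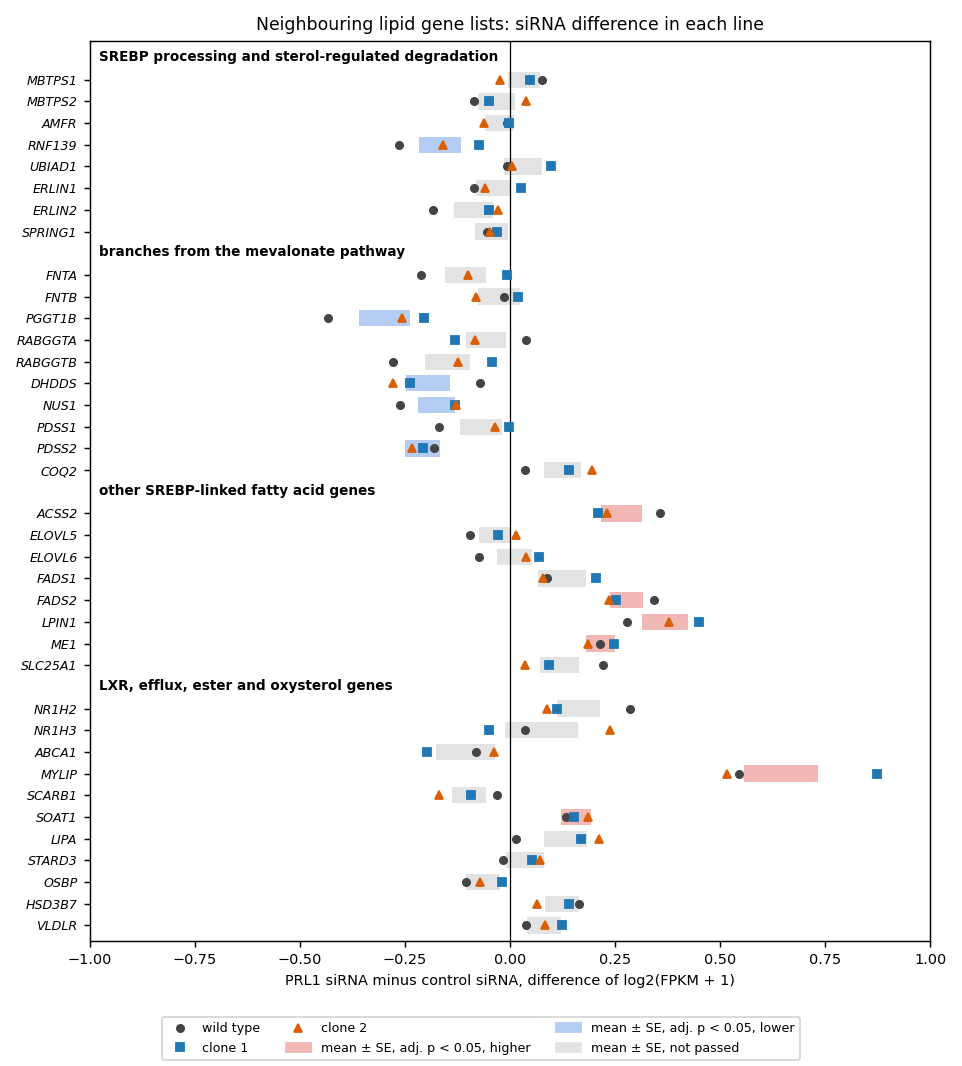
PRL1 siRNA minus control siRNA as a difference of log2(FPKM + 1) (horizontal axis) for the tested genes of 4 neighbouring lists (rows). Symbols are the 3 lines and each shaded box spans the mean ± SE of the within-line limma fit, coloured where the adjusted p was under 0.05. MYLIP is farthest to the right at 0.64 and PGGT1B farthest to the left at -0.30.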

How the data were processed

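Transcripts of 6 MDCK libraries were analysed as FPKM, which the authors computed per gene symbol; per the submitters' processing notes, HISAT2 2.1.0, Cufflinks 2.2.1 and Cuffdiff were used. Build, annotation and strand setting: not given in the sources used here. No coordinates are therefore printed, and overlapping or antisense genes may share fragments. The deposited FPKM carry no fragment counts, and only relative depth was read, from the ratios between libraries of their low values. No sequence is shown and promoter motifs were not analysed here.

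The 12125 symbols whose mean reached 1 FPKM were put on the log2(FPKM + 1) scale, which understates changes of low genes, and fitted with limma 3.58.1 (R 4.3.3), with an intensity trend and Benjamini-Hochberg adjustment over all of them at 0.05. The main fit had the line and the siRNA as terms. A fit of 4 groups without pairing gave the clone, genotype and interaction contrasts. Libraries of 1 clone are paired by origin, and across genes the deviations of the paired clone libraries had a correlation of 0.595. The members and lists were chosen with earlier results of these data known. Values per library are given for genes that passed, differed by at least 0.32 log2 units in all 3 lines or regulate SREBP, and for the largest changes of each role; in other lists, for the largest rise and fall. The gene ratios, the library values of HMGCS1, HSD17B7, NPC2, FASN and SOAT1, the control levels of FDPS, SQLE and GGPS1 set against wild type, MBTPS2, and the epithelial, NR1H2 and HSD3B7 values were added after their values were seen. Alternatives were pseudocount, filter, trend, centring, pairing and left-out lines or libraries.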

Additional observations from a re-analysis of the deposited data

How the results depend on the processing

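The within-line fit called 1179 of all genes, 4 of the 32 as higher and 1 as lower when every gene above 0 was tested, and 416, 0 and 1 without the line as replicate block. Leaving out a line gave 1709 to 4037 genes, 4 to 11 members higher and 4 to 5 lower. The pseudocount of 0.1, the minimum mean of 5 FPKM, the absent trend and median centring kept these counts within 1.5 times. All 19 called members kept their sign under all 9 alternatives, which adds no support to the calls. Filter, trend and pairing do not alter the log2 difference. Each of the 19 had the same sign in all 3 lines, so leaving out a line could not turn it. Signs turned in 4 uncalled genes with 1 line left out: GGPS1 ranged from -0.037 to 0.075, SQLE from -0.068 to 0.069, SREBF2 from -0.036 to 0.046 and STARD4 from -0.11 to 0.030. SREBF2 was at -5.12e-06 with a pseudocount of 0.1. In the clones alone, pairing by clone moved the calls from 0 to 4092 genes, 11 members higher and 5 lower. The genotype contrast called 165 genes with every gene above 0 tested and 4 without the trend, the interaction 157, 4 and, with the line as replicate block, 1, and neither called a member. Without any 1 mutant library, the clone, genotype and interaction contrasts stayed at 0 calls each. At 1.5-fold in all 3 lines, 0 members were higher and 0 lower (98 and 77 of all genes). The causes were not tested. With FPKM only, the counting error of a single value cannot be given.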

Other observations

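Of 14 genes of LXR signalling, sterol efflux, esterification and oxysterols, 11 passed the filter, and by the within-line limma fit 2 rose and 0 fell, with a median of 0.08. The share called was 18.2%, all of it higher, beside 39.3% of all genes called and 17.6% called higher. With libraries centred on their medians 4 passed as higher, with NR1H2 (adjusted p = 0.0309) and HSD3B7 (0.0275) added. MYLIP, an LXR-controlled ubiquitin ligase for lipoprotein receptors, was at 2.08, 1.79 and 2.79 FPKM under control siRNA (wild type, clone 1, clone 2) and at 3.49, 4.12 and 4.42 FPKM after PRL1 siRNA. Its groups did not overlap (0.64 ± 0.09, SE, n = 3 lines, adjusted p = 0.00474). SOAT1, which esterifies cholesterol, rose from 23.1, 21.7 and 20.1 to 25.4, 24.2 and 23.0 FPKM (0.16 ± 0.04, adjusted p = 0.0225), with overlapping groups and no call without clone 1 (0.121) or clone 2 (0.120). ABCA1, the LXR-controlled cholesterol exporter, had the largest decrease of the list and did not pass (-0.11 ± 0.07, adjusted p = 0.270). ABCG1 reached at most 0.0358 FPKM, and CH25H was listed at 0 in all 6 libraries.

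Across the 32 sterol and SREBP genes, the siRNA differences of 2 lines at a time gave Pearson's r of 0.918 between the clones (Spearman's rho 0.883), 0.789 (0.681) between wild type and clone 1 and 0.873 (0.791) between wild type and clone 2. These are descriptions across genes, which are not independent replicates, and the lines share no library. Over all 12125 genes r was 0.550, 0.535 and 0.573 and rho 0.790, 0.725 and 0.699. By rho, wild type and clone 1 were thus closer over all genes than over the 32. The 32 genes had means of at least 9.52 FPKM and all genes went down to 1 FPKM, so the 2 sets are not matched for level.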
